A study of Mus musculus with 2 samples.

Results

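The microRNA (miRNA) clusters that mouse embryonic stem cells (ESCs) are known for, and the Lin28 genes, were examined for Nanog peaks. Nanog is a homeodomain transcription factor of the pluripotency network. The 9 genes comprised 3 miRNA genes of the miR-290 cluster (Mir291a, Mir294 and Mir295), 4 of the miR-302 cluster, which ends with miR-367 (Mir302a, Mir302b, Mir302d and Mir367), Lin28a and Lin28b, out of 53843 annotated genes on chromosomes 1 to 19 and X. A peak was assigned to a locus when its middle base lay within 50 kb of the transcription start site (TSS) of a member, and each peak was counted once per cluster, so that the 9 genes make up 4 loci. Of the 8737 distinct Nanog peaks, 5 met this rule. The miRNA members are annotated as short precursors of 66 to 84 bp. Their TSS here is the start of that precursor, not the start of the longer transcript it is cut from, so distances to it are not distances to a promoter.

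The study followed the reprogramming of mouse fibroblasts towards pluripotency, and its Nanog data came from the end point, ESCs. Chromatin of Bruce-4 cells, a single mouse ESC line with no engineered allele or agent named in the labels, grown in serum with leukaemia inhibitory factor (LIF), was immunoprecipitated with the anti-Nanog antibody D1G10 and sequenced (ChIP-seq). There was 1 immunoprecipitated sample and 1 input sample of the same cells without antibody, neither with a replicate, and only the peak list of the immunoprecipitated sample was analysed here. That list gives positions on mm10 with no score or read depth, so the values below carry no replicate error, no test between loci was possible, and the list tells nothing of how strong a peak was or of the ESC identity of the cells, which is read from RNA markers.

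A miRNA is cut from a long primary transcript by Drosha with Dgcr8 and again by Dicer1, then guides an Argonaute protein to messenger RNAs that pair with its seed, here bases 2 to 8. The miR-290 and miR-302 families are known for promoting the rapid cell cycle of pluripotent cells and for easing reprogramming, with miR-290 typical of the naive state and miR-302 typical of the primed, epiblast-like state. Lin28a and Lin28b are RNA-binding proteins that stop the maturation of let-7, a family of miRNAs of differentiated cells, and in return are targets of let-7.

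The mature sequences are shown because they tie the clusters together although these lie on different chromosomes, 7 and 3. In the 3p arms of 6 of the 7 miRNA members, with the seed in capitals and credited to RefSeq on GRCm38.p6 (the assembly that mm10 denotes), the letters were as follows. The 3p arms miR-302a-3p, of the member Mir302a, and miR-292a-3p were not analysed here.
miR-291a-3p: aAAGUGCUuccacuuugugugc
miR-294-3p: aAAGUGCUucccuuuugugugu
miR-295-3p: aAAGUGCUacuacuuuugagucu
miR-302b-3p: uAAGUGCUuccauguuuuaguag
miR-302d-3p: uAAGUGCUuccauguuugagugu
miR-367-3p: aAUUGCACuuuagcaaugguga
The first 5 have the seed AAGUGCU, which was found in 5 of the 1738 mouse mature miRNA entries searched in RefSeq. Those entries did not include miR-302a-3p and miR-292a-3p, so the count may be incomplete. Of the 6 arms shown, miR-367-3p, from the last gene of its cluster, differed, with AUUGCAC. Of the 3p arms of other genes of the clusters, miR-290a-3p and miR-291b-3p share 6 of the 7 seed letters, while miR-302c-3p holds AAGUGC 1 base closer to its 5' end and miR-293-3p does not hold it.
miR-290a-3p: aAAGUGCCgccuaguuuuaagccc
miR-291b-3p: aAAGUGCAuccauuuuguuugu
miR-302c-3p: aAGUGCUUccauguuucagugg
miR-293-3p: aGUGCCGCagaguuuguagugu
The let-7 family, whose maturation Lin28 blocks, has an unrelated seed, GAGGUAG, in all 11 of its 5p entries found in RefSeq. That of let-7g, 1 of the let-7 genes described below, reads as follows.
let-7g-5p: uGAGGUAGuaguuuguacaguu
The 45 mature sequences of the clusters and of let-7 that were read, without miR-292a-3p, miR-302a-3p and let-7a-2-5p, were identical to the genome at their annotated positions.

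The miR-290 cluster (chromosome 7, plus strand) had 4 Nanog peaks within 50 kb, and the miR-302 cluster (chromosome 3, plus strand) had 1. Lin28a (chromosome 4, minus strand) and Lin28b (chromosome 10, minus strand) had 0. For comparison, 34.4% of the 1842 annotated miRNA loci (miRNA genes of 1 strand chained within 10 kb) had at least 1 peak within 50 kb, as did 36.7% of the 2196 single miRNA genes and 35.2% of the 21755 protein-coding genes. A peak in this range was thus common, and its absence at the Lin28 genes was the state of most protein-coding genes. Having 4 or more peaks was not common, with 26 of the miRNA loci (1.41%) reaching it, and 4 (3.25%) of the 123 loci with at least 2 genes. Both numbers count the peaks of the miR-290 cluster again at an antisense miRNA locus that overlaps it, Mir290b to Mir292b. By single genes, which count every gene of a cluster, 1.59% of all miRNA genes had 4 or more peaks. Among the 1174 with a name that starts with Mir, a set added afterwards, it was 2.39%.

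**Figure D1:**
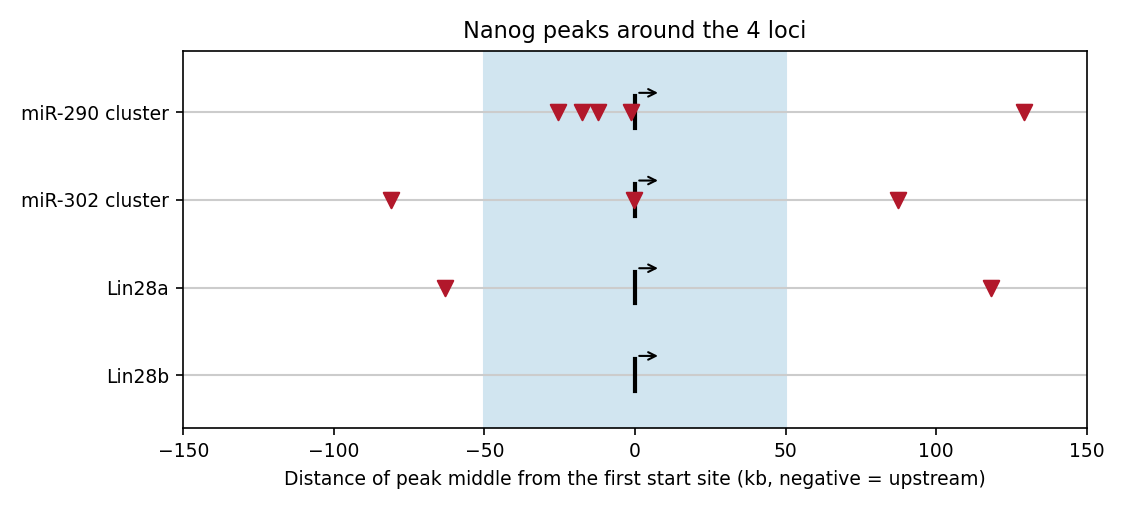
Position of each Nanog peak (triangle, middle base) within 150 kb of the 4 loci, in kb from the TSS of the member nearest to the upstream peaks (Mir291a, Mir302b) or of the gene, with transcription to the right; the shaded band is the 50 kb limit. The miR-290 peaks stood upstream in a row, the miR-302 peak stood next to the annotated start of Mir302b, and the band was empty at Lin28a and Lin28b.

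All 4 peaks of the miR-290 cluster lay upstream of it. Counted from Mir291a, the member nearest to them, their middle bases were 25635, 17466, 12280 and 1248 bp upstream, while Mir294 and Mir295 began 2970 and 3102 bp from the last peak. Mir290a, the most upstream gene of the cluster and not among the members, began 955 bp from it. With neighbours no more than 12.5 kb apart, the distance in common use for joining enhancers, the peaks formed 1 stretch of 24.7 kb (chr7:3193114-3217833), with gaps of 7.82, 4.83 and 10.7 kb, that held no annotated gene and ended 793 bp before Mir290a. No peak lay inside the cluster, and the next one downstream was 129.0 kb from Mir291a. Of the 26 miRNA loci with 4 or more peaks, 5 (19.2%) had all of them upstream, and of the 218 with 2 or more it was 57 (26.1%). Of 30 stretches with 4 or more peaks in the genome, the one at miR-290 was the only 1 with the start of a miRNA gene within 5 kb of it.

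The peaks of the miR-290 stretch were of ordinary width. They measured 341, 349, 373 and 324 bp in genome order, against a median of 319 bp and quartiles of 265 and 393 bp over all peaks, and ranked 3629, 3388, 2689 and 4176 by width. All were intergenic. The nearest annotated gene was the pseudogene Gm3375 for the most distal peak and Mir290a for the other 3. The nearest protein-coding TSS was that of AU018091 for the first 3 peaks in genome order, 24.1, 32.2 and 37.4 kb away, and that of Nlrp12, an innate immune receptor gene, 32.1 kb from the last. RefSeq annotates an element of 16.0 kb there (chr7:3199611-3215602) as regulating Mir290a and AU018091. It held the middle peaks of the stretch, at 17466 and 12280 bp, and the most distal and the most proximal peaks fell outside it. Of all mouse elements in that RefSeq class (transcriptional cis-regulatory regions), 17 (12.1%) held a peak and 12 (8.51%) held at least 2. Their median length was 0.13 kb, and among the 9 of at least 10 kb, 9 held a peak and 7 held at least 2.

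The peak at the miR-302 cluster (chr3:127544702-127544939) was the closest to any of the members. Its middle base was 408 bp upstream of Mir302b, 676 bp upstream of Mir302a, 804 bp upstream of Mir302d and 913 bp upstream of Mir367. The cluster lies within an intron of Larp7, a gene of the opposite strand for a protein that binds the 7SK RNA, whose own TSS was 8.53 kb from the peak. RefSeq also annotates a long non-coding RNA, Gm51018, over the cluster on its strand, and the peak ended 150 bp before the start of that RNA. At 238 bp the peak was narrow, rank 7813 by width, close to the minimum of 235 bp that 778 peaks shared, and 34.9% of it was repeat sequence. It stood alone, as the next peaks were 80.9 kb upstream and 87.5 kb downstream.

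The clusters therefore differed in the number of peaks, 4 against 1, and were alike in having a peak just upstream. Of the miRNA loci, 25 (1.36%) had a peak within 1 kb, both clusters among them when Mir290a is counted. Among the 11 miRNA loci with at least 5 genes, 4 had a peak within 50 kb and 2 had one within 1 kb, namely miR-290 and miR-302. Among the 123 with at least 2 genes, 2 (1.63%) had one within 1 kb, near the share of all miRNA loci. The limits of 1 kb and 5 genes were not planned in advance. By single genes, the share of all miRNA genes with a peak as close as the member was 0.41% for Mir302b, 0.774% for Mir302a, 1.05% for Mir302d, 1.14% for Mir367, 1.73% for Mir291a, 3.19% for Mir294 and 3.42% for Mir295. The members of a cluster share their closest peak, so these 7 values stand for 2 peaks.

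**Figure D2:**
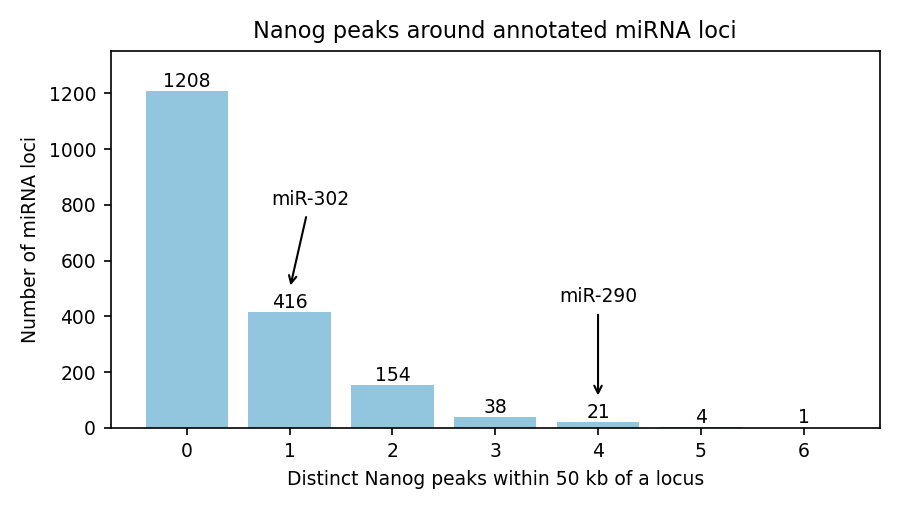
Number of annotated miRNA loci (bars, vertical axis) by number of distinct Nanog peaks within 50 kb (horizontal axis). Of 1842 loci, 1208 had 0 peaks; arrows mark the bars that hold the miR-302 cluster (416 loci with 1 peak) and the miR-290 cluster (21 loci with 4).

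The order of the loci by the closest peak was miR-302 (0.408 kb), miR-290 (1.25 kb), Lin28a (63.2 kb) and Lin28b (293.0 kb). The median over protein-coding genes was 85.3 kb, which placed Lin28a nearer than the median and Lin28b farther. As close a peak as that of Lin28a was found at 41.4% of protein-coding genes, and one as close as that of Lin28b at 83.8%. The closest peak of Lin28a lay upstream, in a coding exon of Crybg2 (chr4:134081792-134082281, 490 bp wide), and was nearer to another gene, Cd52, at 13.0 kb. Its GC content was 66.3%, against a median of 47.7% over all peaks. The closest peak of Lin28b lay downstream, in an intron of Popdc3 (chr10:45193550-45193911), whose TSS was 15.6 kb away.

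**Figure D3:**
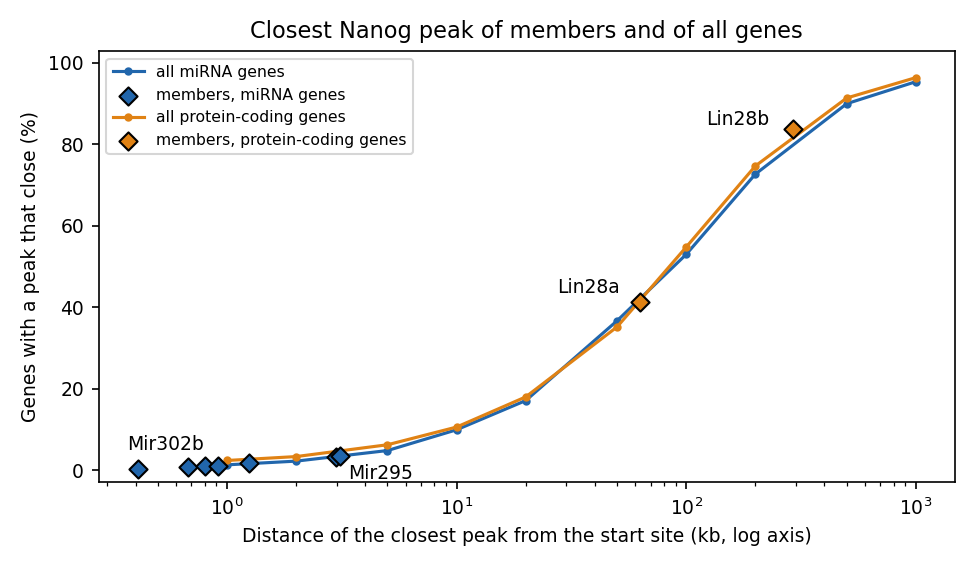
Cumulative share of miRNA genes and of protein-coding genes (lines, vertical axis in percent) by the distance of the closest Nanog peak (horizontal axis in kb, log scale), with the 9 members as diamonds. The 7 miRNA members sit at the foot of the curve, between 0.408 and 3.1 kb, Lin28a at 63.2 kb and Lin28b at 293.0 kb.

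The surroundings of the Lin28 genes differed as well. Lin28a had 7 peaks within 500 kb, and the interval between its flanking peaks was 181.0 kb. Intervals at least as long surrounded 79.8% of protein-coding genes, so the neighbourhood of Lin28a was not sparse in peaks. Lin28b had 2 peaks within 500 kb, with the next peak upstream 1200.0 kb away, and its peak-free interval of 1500.0 kb was matched or exceeded at 12.7% of protein-coding genes. The miR-290 and miR-302 clusters had 5 and 6 peaks within 500 kb, against a median of 4 for miRNA genes and for protein-coding genes alike. Around the miR-290 cluster 34.2% of that window is unsequenced in the assembly, where no peak can be listed.

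Sequences of the peaks are shown with motif matches, searched as exact letters on both strands, to show which letters of the pluripotency factors they held. The letters, with the share of all 8735 peaks on chromosomes 1 to 19 and X that hold them, were CCTTTGT or CCATTGT for Sox factors (28.2%), CCATTA for the Nanog core (18.1%), ATGCAAAT for the Oct octamer (5.72%), GGAATG for Tead (25.4%), TTCCNGGAA for Stat3 (1.33%), TCAAGGTCA for Esrrb (3.53%), CACGTG for the Myc E-box (4.24%), and GCCCCGCCC, GCCACACCC, GCCACGCCC or GCCCCACCC for Klf factors (9.0%). The Oct4-Sox2 composite, which overlaps the Sox and octamer letters, was searched with at most 2 mismatches (4.12%). None of the 5 peaks held the octamer, the composite, or the Esrrb, Klf or E-box letters. A match is no more than letters in a window, and the absence of one says nothing about the factor.

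The miR-290 peak at 17466 bp held a Tead match at -127 bp from its middle base and a Stat3 match at 27 bp. Stat3 is the factor through which LIF, present in the medium, acts. The peak at 12280 bp held a Sox match at 38 bp. The stretches that span these matches, on the plus strand and with the matches in capitals, were chr7:3201309-3201499 and chr7:3206637-3206717.
miR-290 peak at 17466 bp: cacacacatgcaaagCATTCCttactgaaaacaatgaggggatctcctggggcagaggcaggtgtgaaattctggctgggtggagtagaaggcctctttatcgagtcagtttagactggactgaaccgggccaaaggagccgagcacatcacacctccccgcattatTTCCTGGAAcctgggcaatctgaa
miR-290 peak at 12280 bp: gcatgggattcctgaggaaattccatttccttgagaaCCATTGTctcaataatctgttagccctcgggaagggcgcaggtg
The most distal peak and the most proximal one held none of the 9 motifs, as did 33.3% of all peaks. The middle 300 bp of the proximal peak, chr7:3217522-3217821, is shown because it directly precedes the cluster. Its capitals mark TATATAAG, a TATA-box-like run chosen after the sequence was seen, which begins 824 bp before Mir290a and occurs in 0.79% of all peaks.
miR-290 proximal peak: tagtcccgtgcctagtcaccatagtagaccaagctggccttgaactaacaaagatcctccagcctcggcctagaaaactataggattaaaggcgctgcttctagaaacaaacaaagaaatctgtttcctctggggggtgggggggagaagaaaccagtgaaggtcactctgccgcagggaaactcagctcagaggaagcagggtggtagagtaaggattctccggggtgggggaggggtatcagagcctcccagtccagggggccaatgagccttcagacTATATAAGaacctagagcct
The miR-302 peak held 1 Nanog core match, on the minus strand and 57 bp after its middle base, here in capitals in the whole peak on the plus strand, chr3:127544702-127544939. Its GC content of 36.1% was below the lower quartile of all peaks (44.1%), while those of the miR-290 peaks, in genome order 46.3, 53.3, 53.6 and 54.3%, included 3 above the upper quartile (51.5%).
miR-302 peak: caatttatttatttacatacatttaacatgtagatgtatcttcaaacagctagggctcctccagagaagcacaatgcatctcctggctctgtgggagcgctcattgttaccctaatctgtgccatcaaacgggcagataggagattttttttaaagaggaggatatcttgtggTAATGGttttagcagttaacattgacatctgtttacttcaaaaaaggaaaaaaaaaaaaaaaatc
The best match to the Oct4-Sox2 composite had 3 mismatches in the miR-302 peak and 5 in each of the miR-290 peaks. Of all peaks, 17.8% had a match with 3 or fewer. The Lin28a peak in Crybg2 held 2 Klf matches and 1 E-box.

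Of 13 genes of miRNA processing, among them Drosha, Dgcr8 and Dicer1, 1 (7.69%) had a peak within 50 kb, and 0 within 10 kb. Over all protein-coding genes the shares were 35.2% and 10.6%, and within 100 kb the list had 5 genes. The gene within 50 kb was Ago2, an Argonaute, with a peak in its own intron 45.0 kb from the TSS. The median distance over the list was 171.0 kb, against 85.3 kb for all protein-coding genes. Ago1, Ago3 and Ago4 are neighbours on chromosome 4 and are not independent of each other.

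Of 12 let-7 genes, Mir98 included, 1 (8.33%) had a peak within 50 kb, against 36.7% of all miRNA genes, and within 100 kb 5 did. The gene within 50 kb was let-7g, 32.6 kb from a peak in an intron of Twf2. The median over the list was 120.0 kb, against 90.7 kb for all miRNA genes. Several let-7 genes lie side by side and share their closest peak.

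Of 6 genes that act with Lin28 or on the same RNAs, 3 (50.0%) had a peak within 50 kb, beside 35.2% of all protein-coding genes. The median distance was 48.0 kb, against 85.3 kb. Msi1, an RNA-binding protein of neural progenitors reported to cooperate with Lin28, had a peak at 6.91 kb. Trim71, a let-7 target and RNA-binding protein of ESCs, had 2 peaks, the closer at 15.1 kb in its own intron. Msi2, the paralogue of Msi1, had 2, the closer at 40.0 kb. The enzymes of let-7 tailing and decay had none, with the closest at 109.0 kb for Tut4, 167.0 kb for Tut7 and 56.1 kb for Dis3l2. Ago2, let-7g, Trim71, Msi2 and these enzymes were named after their values were seen.

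Of 12 other miRNA loci, 6 (50.0%) had a peak within 50 kb and 5 of them within 10 kb, where the shares of all miRNA genes were 36.7% and 9.93%. These shares are of single genes, whereas a listed cluster was counted by the closest of its genes. Over all miRNA loci the share within 50 kb was 34.4%, and that within 10 kb was not computed. Mir9-2, a neural miRNA, had 1 peak at 2.18 kb. Mir296, an ESC-expressed miRNA, had 4, the closest at 2.64 kb. The miR-106a-363 cluster had 3, the closest at 2.97 kb, Mir124a-1, another neural miRNA, had 2, the closest at 4.42 kb, and miR-106b-25, which lies in an intron of Mcm7, had 1 at 5.32 kb. The remaining locus, that of miR-143 and miR-145, had 2, the closer at 18.8 kb. The oncogenic miR-17-92 cluster had none within 50 kb, and its closest was at 162.0 kb. These last loci were named after their values were seen. The miR-17, miR-106a and miR-106b clusters carry the letters AAGUGC shifted by 1 base, at positions 3 to 8, so that their seed differs from that of the ESC clusters. The sequences of miR-106a-5p, near a peak, and of miR-17-5p, far from one, are shown with bases 2 to 8 in capitals.
miR-106a-5p: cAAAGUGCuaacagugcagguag
miR-17-5p: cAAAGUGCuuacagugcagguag
These related letters thus occurred in clusters with peaks and in one without.

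**Figure D4:**
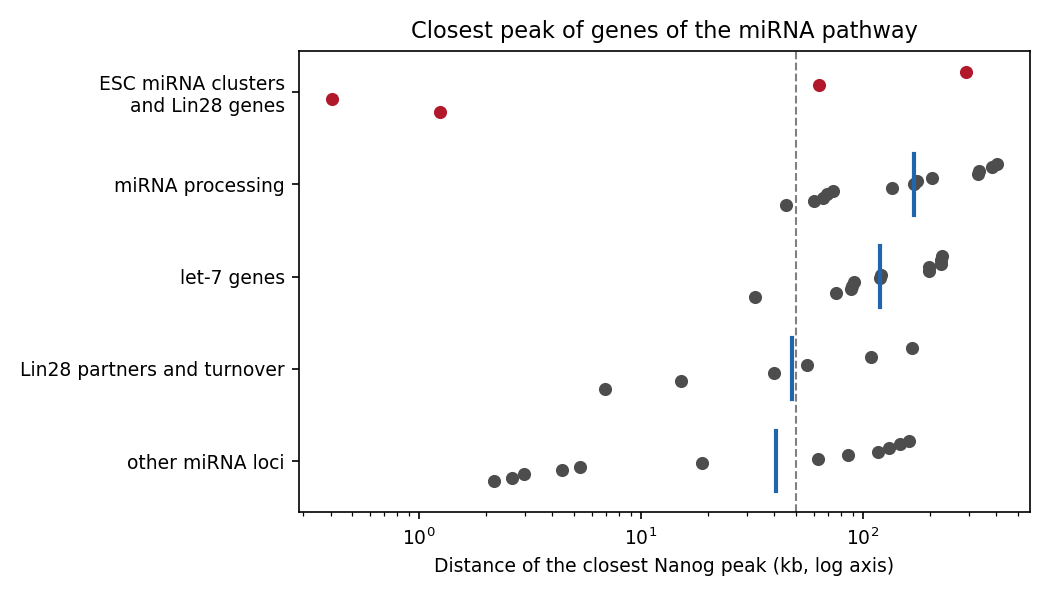
Distance of the closest Nanog peak (horizontal axis, kb, log scale) for the 4 loci (red) and for each gene or locus of the 4 lists (grey), sorted within a row, with the median of each list as a blue bar and the 50 kb limit as a dashed line. The ESC miRNA clusters lie left of all other points, while 12 of 13 processing genes and 11 of 12 let-7 genes lie right of the limit.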

How the data were processed

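Nanog ChIP-seq of Bruce-4 ESCs comprised 1 immunoprecipitated and 1 input sample. Tools named in the submitters' processing notes are FastQC, Bowtie2, BEDtools, SAMtools and MACS2, with the genome mm10. The authors deposited peaks as chromosome, start and end only, with no score, fold enrichment or p-value, and neither the threshold of the peak call nor the use of the input as its control was found in the sources used here. Sites below that threshold cannot be told from unbound sequence, and repeats that short reads cannot place may lack peaks.

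Of 8860 lines, 8737 were distinct. The 122 intervals listed more than once did not include any peak of the members. Genes and TSSs were those of GENCODE vM21, positions are 1-based, and distances run to the middle base of a peak. The 4 gene lists came from general knowledge. The members and lists were chosen with earlier results of these data known. Named genes were the members, the other genes of the clusters, the host and neighbouring genes of the peaks, and list genes with a peak within 10 kb. List genes outside this rule were named for their role or after their values were seen. Sequences were read from GRCm38 and RefSeq. With 1 sample no p-value was computed. Counting and motif search were tested on simulated data with known answers, in Python 3.11.15 with pandas 2.3.3, numpy 2.4.6 and pysam 0.24.0.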

Additional observations from a re-analysis of the deposited data

How the results depend on the processing

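Of 81 alternative values, 62 stayed within 1.5 times the main value (shares of genes, within their exact 95% interval) and 19 moved. The moves came from other distance limits, other start sites or gene sets and a looser motif. At 10 kb the miR-290 cluster had 1 peak in place of 4, and 3 at 25 kb. At 100 kb the miR-302 cluster had 3 and Lin28a had 1, while Lin28b still had 0. From the RefSeq start of Gm51018, an alternative added after seeing the data, the miR-302 peak was 269 bp away. From that of D7Ertd143e, a RefSeq transcript over the miR-290 members and also added afterwards, the closest peak was 1113 bp away. At 10, 25 and 100 kb the share of protein-coding genes with a peak was 10.6, 21.4 and 54.8%, and that of miRNA genes 9.93, 21.0 and 53.0% (40.5% at 50 kb for genes with a Mir name, also added afterwards). With 3 mismatches allowed, 1 miR-302 peak held the composite. The miRNA processing list had 0, 0 and 5 genes with a peak at 10, 25 and 100 kb, the let-7 list 0, 0 and 5, and at 10 kb the list of Lin28 partners had 1. The number of peaks at each locus was the same with the nearest edge, every transcript start, all lines, peaks merged within 300 bp and RefSeq starts. No paired analysis was possible because 1 sample has a peak list. The paper gives an approximate read number for the Nanog ChIP-seq, but the peak list holds neither read depth nor peak strength. A count of 0 peaks at Lin28a and Lin28b thus means that none was listed, not that Nanog was absent.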
